A study of Homo sapiens with 24 samples.

Results

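CCCH zinc finger genes encode proteins with a zinc finger in which 3 cysteines and 1 histidine hold the zinc ion. ZC3H7B, the protein that the labels name as overexpressed, belongs to this family, and its mRNA and those of its relatives are described here. The members are 49 gene symbols listed by name from knowledge of the family. The rule uses no measured value, but the list was drawn up with earlier results of these data known. Of these, 48 had an entry of their own in the deposited count tables, which hold 19692 entries, 19242 of them naming 1 gene. ZGPAT appeared only in an entry shared with another gene and was given no value. Enough reads for a test of all reads were present for 42 members, against 10038 entries in all. The other 6 held few reads over all libraries: 39 for ZRSR2, 32 for TRMT1, 19 for RNF113A, 18 for ZFP36, 2 for MBNL2 and 1 for ZC3HAV1L.

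The libraries came from 2 HEK293 lines (HEK293 is a human embryonic kidney cell line in wide use): ZC3H7B-OE, which by its labels overexpresses ZC3H7B, and control, which carries a Flag/HA construct. Both lines received 100 µM 4-thiouridine (s4U), which cells build into new RNA, together with 1 µg/mL doxycycline, the drug that switches on inducible constructs, for 24 h. A chase with 10 mM uridine followed, and RNA was taken at 0, 2, 4 and 6 h, with 3 libraries per line and time and 24 in all. Alkylation makes s4U read as C, and reads with such T-to-C changes are called labelled here. Cells without doxycycline were not analysed here, and whatever set the lines apart before induction cannot be told apart from an effect of ZC3H7B. The labels do not say that the 3 libraries of a group came from separate cultures, so the p-values reflect only how far these libraries spread, which may be technical.

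CCCH fingers bind RNA, most often short single-stranded stretches rich in U and A or, in muscleblind proteins, GC-containing motifs. The family includes factors that bring deadenylases to mRNA, endoribonucleases, proteins that hand nuclear RNA to the exosome or to export, splicing and 3' end processing factors, and enzymes in which the finger is an added RNA-binding part. ZC3H7A and ZC3H7B are paralogs that the title of the study links to codon-dependent translation and mRNA stability. In HEK293 cells most of these proteins act as general RNA factors, while TIPARP, ZC3H12A, ZFP36 and ZC3HAV1 are better known from responses to xenobiotics, cytokines or viruses.

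The coding sequence of 1 finger is shown for the ZC3H7 pair, for the other members called in labelled odds (MBNL3, MKRN2 and RBM26) and, as a well-studied finger to set beside them, for ZFP36L1, with the codons of the zinc-binding cysteines and histidine in capitals. The sequences run 5' to 3' and were read from GENCODE 29 transcripts by gene name.
ZC3H7B: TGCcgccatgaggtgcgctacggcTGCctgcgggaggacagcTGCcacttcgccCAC
ZC3H7A: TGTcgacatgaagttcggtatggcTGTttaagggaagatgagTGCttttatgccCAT
MBNL3: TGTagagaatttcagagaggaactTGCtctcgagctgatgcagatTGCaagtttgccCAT
MKRN2: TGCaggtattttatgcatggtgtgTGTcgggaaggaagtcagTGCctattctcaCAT
RBM26: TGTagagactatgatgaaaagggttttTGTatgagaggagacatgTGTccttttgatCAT
ZFP36L1: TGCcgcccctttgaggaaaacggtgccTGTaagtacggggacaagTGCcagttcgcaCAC

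These lie on chromosome 22 for ZC3H7B, 16 for ZC3H7A, X for MBNL3, 3 for MKRN2, 13 for RBM26 and 14 for ZFP36L1. The finger of the ZC3H7 pair spans 19 codons, of which 16 encode the same amino acid in both genes. At 12 of those 16 the codon differs, and 18 of the 19 codons end in G or C in ZC3H7B against 6 in ZC3H7A. Over the whole coding sequence the share of codons ending in G or C (GC3) was 81.0% in ZC3H7B and 35.8% in ZC3H7A. A protein search for the pattern C, 5 to 9 residues, C, 4 to 6 residues, C, 3 residues, H matched 47 of the 49 members, up to 5 times in a protein. ZC3H18 and DUS3L had no match, which says only that this pattern is not in the transcript read.

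Depth ran from 1502068 to 3676254 reads a library, and labelled reads from 830574 to 1579744. Depth followed the chase: libraries of 0 and 2 h held 1502068 to 2053311 reads, and those of 4 and 6 h held 2480380 to 3676254. Control 0 h replicate 3 stood apart: its TMM scaling factor was 0.724, against 0.925 to 1.08 in the other libraries, and 11032 genes had a read in it, against 12005 to 13201. Reads of the members made up 1877 CPM in that library (CPM is a count relative to all reads of its library, here unscaled), against 2901 and 2796 CPM in control 0 h replicates 1 and 2. Markers of HEK293, of which 10 of 11 were in the tables and 0 were at 0, summed to 183.8 to 312 CPM in ZC3H7B-OE and to 192 to 280.3 CPM in control (from here on, CPM is scaled by TMM). INA gave the largest part of that sum, at 99.7 to 210.1 CPM. Only 7 of the 10 had enough reads for a test, and NEFM held 2 reads and PAX2 13 over all libraries. Leukocyte markers summed to 233 to 410.0 CPM in ZC3H7B-OE and 50.2 to 304 CPM in control, with PTPRC and CD3E, which define leukocytes, at 0 and LCP1 and CD68 holding most of the sum. Epithelial markers summed to 120.0 to 295 CPM in ZC3H7B-OE and 113 to 736 CPM in control, mostly KRT10. Fibroblast and adult kidney tubule markers stayed under 9 CPM and endothelial markers at 0. The part of these markers in the results below was not tested.

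A smaller share of ZC3H7B reads was labelled in ZC3H7B-OE than in control at every chase time, and that of ZC3H7A was lower over the 4 times together. In ZC3H7B-OE, the labelled share of ZC3H7B reads was 62.2, 63.0 and 66.1% in the 0 h libraries, 61.3, 61.9 and 55.4% in those of 2 h, 38.4, 33.7 and 32.9% in those of 4 h and 20.8, 23.1 and 20.7% in those of 6 h. In control, the labelled share of ZC3H7B reads was 76.1, 77.6 and 90.9% in the 0 h libraries, 77.9, 76.9 and 76.8% in those of 2 h, 65.8, 60.6 and 65.0% in those of 4 h and 46.2, 44.8 and 44.7% in those of 6 h. The 2 lines did not overlap at any of the 4 times. Labelled odds, that is labelled reads over unlabelled reads of the gene, were tested with edgeR's quasi-likelihood fit with Benjamini-Hochberg adjustment over 9284 entries, and a threshold of 0.05. The log2 odds of ZC3H7B were −1.42 in ZC3H7B-OE relative to control over the mean of the times (SE 0.09, adjusted p = 8.98e-23), with −1.18, −1.21, −1.71 and −1.59 in time order, each past the threshold. ZC3H7B all-read levels over 12 libraries ran from 254.7 to 465 CPM with a median of 293 CPM in ZC3H7B-OE, and from 193 to 377 CPM with a median of 235 CPM in control. These ranges overlap, but the 3 ZC3H7B-OE libraries lay above the 3 control libraries at 0, 4 and 6 h. The all-read difference of 0.28 on the log2 scale (SE 0.08, adjusted p = 0.0035) came to 0.22 both without the 0 h libraries (adjusted p = 0.00453) and without control 0 h replicate 3 alone (adjusted p = 0.000624), and to 0.42 with 2 h left out. As a fold it was 1.22 over the 4 times, and by time it ran from 0.94 at 2 h (adjusted p = 0.805) to 1.47 at 0 h, so that no strong excess of ZC3H7B reads was seen in the line labelled as overexpressing it. The call at 0 h (adjusted p = 0.00699) was lost from the 6 libraries of 0 h alone (0.57, adjusted p = 0.175). From those of 4 h alone the difference passed (0.37, adjusted p = 0.00437), and likewise from those of 6 h (0.35, adjusted p = 0.00225). At these 2 times the fit of all libraries made no call. Whether reads of the introduced construct were counted is not given in the sources used here.

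ZC3H7A, the paralog, had a lower labelled share over the 4 times, by a call that did not hold throughout. In ZC3H7B-OE, the labelled share of ZC3H7A reads was 83.7, 88.2 and 97.4% in the 0 h libraries, 67.4, 70.4 and 65.7% in those of 2 h, 31.2, 28.7 and 21.3% in those of 4 h and 15.3, 12.4 and 13.5% in those of 6 h. In control, the labelled share of ZC3H7A reads was 95.8, 100.0 and 93.1% in the 0 h libraries, 71.4, 78.8 and 69.0% in those of 2 h, 28.5, 30.5 and 30.1% in those of 4 h and 16.9, 16.4 and 22.1% in those of 6 h. The lines overlapped at 0, 2 and 4 h, and at 6 h every ZC3H7B-OE library was below every control library. The log2 odds differed by −0.74 (SE 0.25, adjusted p = 0.0405), a call that was lost relative to the library-wide labelled odds (−0.59, adjusted p = 0.145), with any time left out, and without 11 of the 24 libraries in turn. All-read levels ran from 16.5 to 90.6 CPM in ZC3H7B-OE and from 26.7 to 81.3 CPM in control. The log2 difference was −0.58 at 0 h, which passed in the fit of all libraries (adjusted p = 0.0419) but not from the 6 libraries of 0 h alone (−0.54, adjusted p = 0.238), and −0.20 over the 4 times, which did not (SE 0.10, adjusted p = 0.0898). It passed with 4 h left out (−0.34, adjusted p = 0.0277) and when any of 3 libraries was left out: ZC3H7B-OE 0 h replicate 1, control 0 h replicate 3, or replicate 2 of control 2 h.

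**Figure D1:**
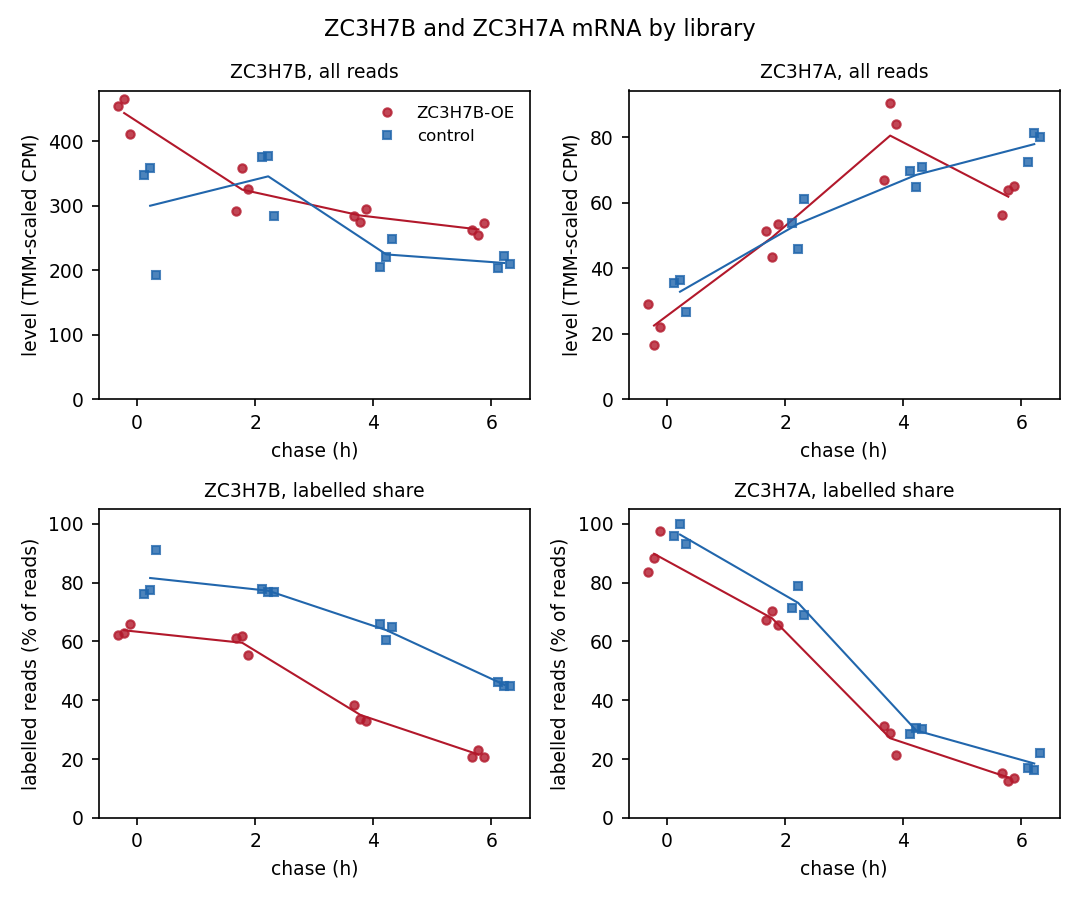
All-read levels (upper panels, TMM-scaled CPM) and labelled shares (lower panels, percent of the gene's reads) of ZC3H7B and ZC3H7A against hours of chase. Points are libraries, red circles ZC3H7B-OE and blue squares control, and lines join the means of 3 libraries. The labelled share of ZC3H7B is lower in ZC3H7B-OE at all 4 times, while its all-read level overlaps control only at 2 h.

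The next question was which members differ in level between the lines. Tested on all reads over the mean of the 4 times, 8 of the 42 members were higher and 10 lower in ZC3H7B-OE, while 24 did not pass (edgeR quasi-likelihood test, adjusted p under 0.05 over 10038 entries). Over all entries 45.8% passed, 20.3% higher and 25.4% lower, so the members' shares of 19.0% and 23.8% were near the background, and the median log2 difference was 0.01 in the members and in all entries. The members higher in ZC3H7B-OE were DUS3L, CPSF4, DHX57, LENG9, U2AF1, ZC3H18, PRR3 and ZC3H7B. Those lower were ZC3H6, MBNL3, UNK, RC3H2, ZC3H12C, ZC3H8, TIPARP, ZC3H14, MKRN2 and RBM27. In a bulk library, fewer cells with an mRNA and less of it per cell cannot be told apart. At 0 h, 3 members were higher and 7 lower (11.7% and 19.5% of all entries), and at 2 h 0 were higher and 1 lower (2.19% and 7.26%). At 4 h, 4 were higher and 5 lower (6.79% and 10.9%), and at 6 h 1 was higher and 2 lower (6.54% and 9.23%). MBNL3 was the single member to pass at each of the 4 times. The counts by time depend on the spread taken from all 24 libraries. From the 6 libraries of 0 h alone, 0 members were higher and 1, MBNL3, lower, against 117 and 674 of all entries. From those of 6 h alone, 6 members were higher and 4 lower, against 1599 and 1687 of all entries. Single-time fits filter entries anew, and shares of the entries tested are not given for them. These counts therefore do not place the members against the background. A change of the difference along the chase, the F test of the interaction, passed for 174 entries (1.73%) and for 0 members. At an unadjusted p under 0.05 were 3 of 42 members, against 18.4% of all entries. These were MKRN2, ZC3H7A and ZC3H7B (0.0338, 0.0369 and 0.0472, adjusted p from 0.234 to 0.264). No other tool was run for the interaction.

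**Figure D2:**
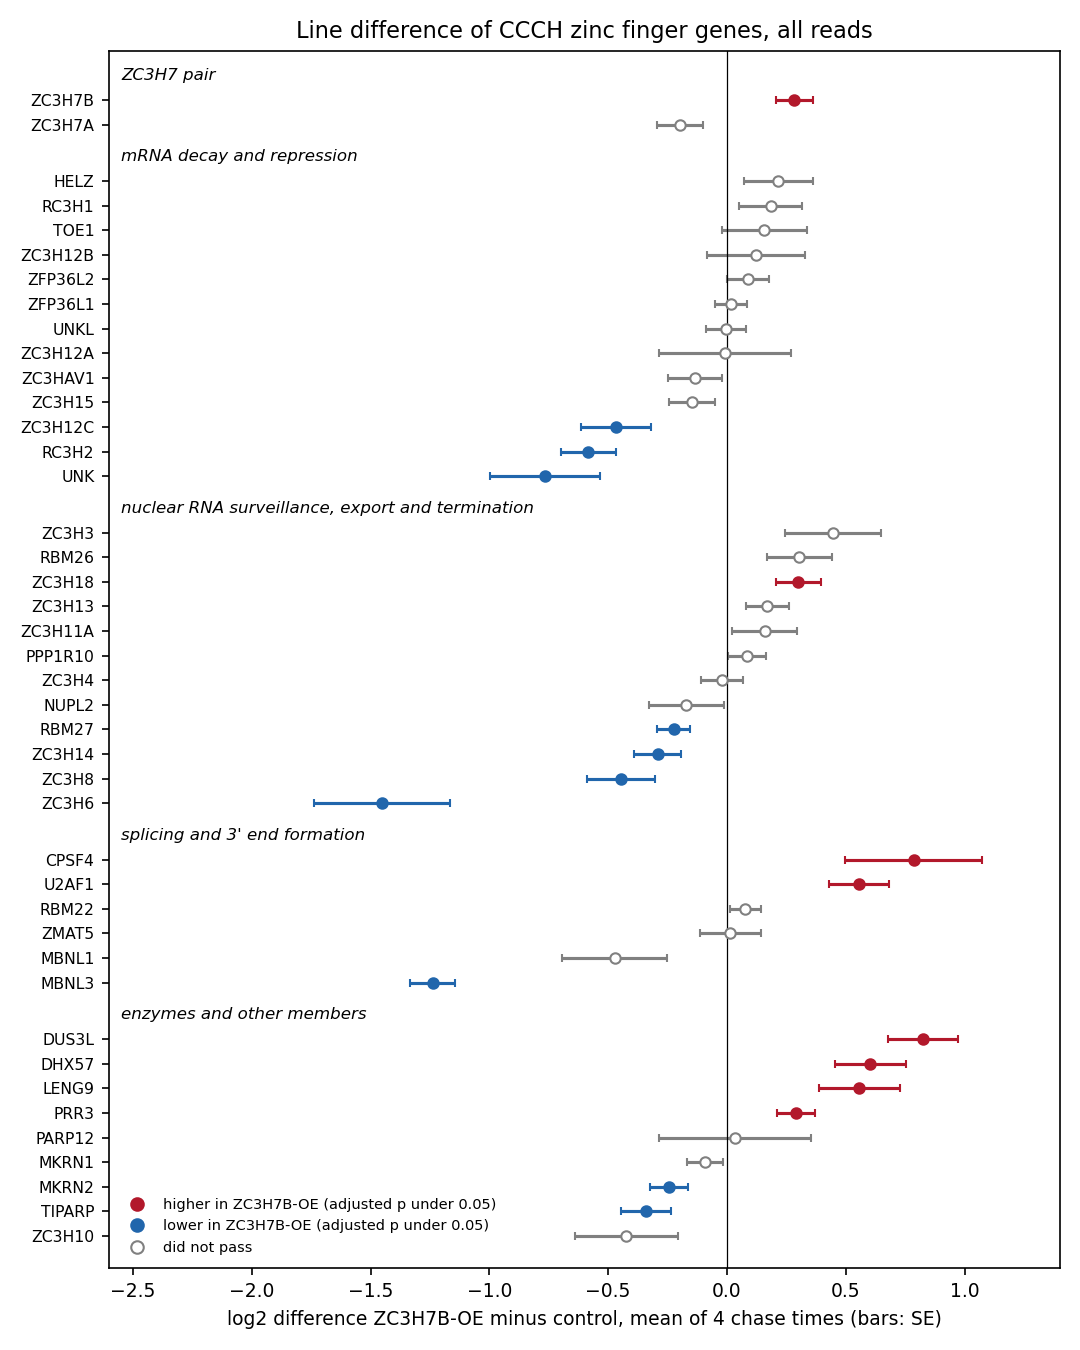
Log2 difference in all-read level, ZC3H7B-OE minus control over the mean of 4 chase times (x axis), for the 42 tested members, grouped by role. Points are edgeR estimates with SE bars, filled red where higher, filled blue where lower and open where the test was not passed. ZC3H6 (−1.45) and MBNL3 (−1.24) lie farthest left and DUS3L (0.82) and CPSF4 (0.79) farthest right.

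Among the factors of mRNA decay and repression, 0 of 13 tested members were higher in ZC3H7B-OE and 3 were lower. RC3H2, or Roquin-2, binds stem-loops in 3' ends of immune mRNAs and recruits deadenylases. In ZC3H7B-OE, RC3H2 held 23.7, 17.9 and 36.5 CPM at 0 h, 80.0, 65.5 and 140.4 CPM at 2 h, 160.1, 170.0 and 163 CPM at 4 h and 260.4, 229.8 and 182 CPM at 6 h. In control, RC3H2 held 42.8, 57.6 and 50.7 CPM at 0 h, 108, 103 and 157 CPM at 2 h, 306, 246 and 243 CPM at 4 h and 264, 298 and 281 CPM at 6 h. Every ZC3H7B-OE library was below every control library at 0, 4 and 6 h, and the lines overlapped at 2 h. The log2 difference was −0.58 (SE 0.11, adjusted p = 0.000122). ZC3H12C, or Regnase-3, belongs to the ZC3H12 ribonucleases. In ZC3H7B-OE, ZC3H12C held 7.12, 2.91 and 6.96 CPM at 0 h, 24.2, 43.0 and 48.5 CPM at 2 h, 49.96, 56.0 and 49.4 CPM at 4 h and 74.9, 74.7 and 53.1 CPM at 6 h. In control, ZC3H12C held 14.3, 9.79 and 3.69 CPM at 0 h, 43.0, 34.0 and 63.2 CPM at 2 h, 75.7, 84.2 and 71.4 CPM at 4 h and 68.9, 79.2 and 81.3 CPM at 6 h. The lines were separated at 4 h and overlapped at the other times. ZC3H12C differed by −0.47 (SE 0.15, adjusted p = 0.0104), a call lost on leaving out control 0 h replicate 1 (−0.35, adjusted p = 0.0734) or 4 h (adjusted p = 0.0936) and with limma-trend (adjusted p = 0.0536). ZC3H12C overlaps a protein-coding gene on the other strand, and it is not stated whether counting used strand, so its reads are uncertain.

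UNK, or Unkempt, is a translational repressor known from developing mouse neurons. In ZC3H7B-OE, UNK held 32.0, 47.5 and 37.7 CPM at 0 h, 35.1, 43.5 and 51.0 CPM at 2 h, 14.2, 24.1 and 16.1 CPM at 4 h and 9.54, 11.9 and 11.4 CPM at 6 h. In control, UNK held 46.7, 44.0 and 239.6 CPM at 0 h, 41.4, 46.5 and 46.4 CPM at 2 h, 33.1, 31.1 and 21.4 CPM at 4 h and 17.3, 23.5 and 21.5 CPM at 6 h. The value of 239.6 CPM in control 0 h replicate 3, the library that stands apart, was the highest of the 24, and the lines were separated at 6 h only. The log2 difference of −0.77 (SE 0.23, adjusted p = 0.0105) became −0.46 without that library (adjusted p = 0.000781) and did not pass with 6 h left out (adjusted p = 0.0632). UNK overlaps the antisense gene H3F3B, and without a stated use of strand, reads of the 2 genes cannot be told apart. The 10 members of this group that did not pass had log2 differences from −0.15 for ZC3H15 to 0.22 for HELZ. They include RC3H1, the Roquin-1 paralog of RC3H2, at 0.18 (adjusted p = 0.266), and the AU-rich element binding proteins ZFP36L1 at 0.02 (adjusted p = 0.878) and ZFP36L2 at 0.09 (adjusted p = 0.423).

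Of 12 tested members that act in nuclear RNA surveillance, export and termination, 1 was higher and 4 were lower in ZC3H7B-OE. ZC3H6 is a relative of ZC3H4, which restrains unproductive transcription. In ZC3H7B-OE, ZC3H6 held 0, 0.969 and 0.580 CPM at 0 h, 3.46, 3.22 and 3.57 CPM at 2 h, 10.6, 13.0 and 7.68 CPM at 4 h and 14.0, 15.0 and 11.0 CPM at 6 h. In control, ZC3H6 held 2.95, 1.09 and 0.922 CPM at 0 h, 5.63, 3.24 and 14.0 CPM at 2 h, 29, 44.2 and 32.5 CPM at 4 h and 28.2, 42.7 and 27.8 CPM at 6 h. Few reads stand behind the values at 0 h, and the lines did not overlap at 4 and 6 h, with ZC3H7B-OE the lower. ZC3H6 differed by −1.45 (SE 0.29, adjusted p = 9.49e-05). RBM27, which works with RBM26 in handing polyadenylated nuclear RNA to the exosome, was also lower. In ZC3H7B-OE, RBM27 held 35.0, 36.3 and 34.2 CPM at 0 h, 132, 151 and 132 CPM at 2 h, 362, 275 and 321 CPM at 4 h and 370.5, 399.7 and 421 CPM at 6 h. In control, RBM27 held 53.6, 51.1 and 43.3 CPM at 0 h, 167, 182 and 153 CPM at 2 h, 374, 328 and 368 CPM at 4 h and 404, 355 and 404 CPM at 6 h. At 0 and 2 h every ZC3H7B-OE library was below every control library, and the lines overlapped later. The difference of −0.22 on the log2 scale (SE 0.07, adjusted p = 0.0069) was −0.11 and did not pass with 0 h left out (adjusted p = 0.16), nor without a filter on low counts (adjusted p = 0.0507).

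ZC3H18 connects the cap-binding complex to nuclear RNA decay, and it was the member of this group that was higher. In ZC3H7B-OE, ZC3H18 held 88.4, 78.5 and 107 CPM at 0 h, 71.4, 81.1 and 57.2 CPM at 2 h, 83.0, 85.7 and 78.2 CPM at 4 h and 102, 83.2 and 129.7 CPM at 6 h. In control, ZC3H18 held 65.9, 63.6 and 60.8 CPM at 0 h, 67.5, 94.6 and 54.5 CPM at 2 h, 58.6, 48.1 and 58.4 CPM at 4 h and 95.4, 92.8 and 94.7 CPM at 6 h. Every ZC3H7B-OE library was above every control library at 0 and 4 h. Its log2 difference was 0.30 (SE 0.09, adjusted p = 0.00906), and 0.21 with 4 h left out, when it did not pass (adjusted p = 0.165). ZC3H8, a component of the little elongation complex of small nuclear RNA genes, was lower. In ZC3H7B-OE, ZC3H8 held 8.31, 12.6 and 19.7 CPM at 0 h, 16.1, 22.0 and 36.2 CPM at 2 h, 26.8, 30.4 and 34.4 CPM at 4 h and 38.2, 33.7 and 41.8 CPM at 6 h. In control, ZC3H8 held 36.9, 21.2 and 21.2 CPM at 0 h, 19.4, 19.99 and 33.5 CPM at 2 h, 37.8, 49.3 and 37.4 CPM at 4 h and 56.0, 47.3 and 46.1 CPM at 6 h. ZC3H8 was below control without overlap at 0, 4 and 6 h, and the difference came to −0.45 (SE 0.14, adjusted p = 0.0102). With 0 h left out it was −0.24 (adjusted p = 0.138), and with 4 h or 6 h left out it did not pass either (adjusted p = 0.0531 and 0.0505).

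ZC3H14 binds poly(A) and limits tail length. In ZC3H7B-OE, ZC3H14 held 33.8, 33.9 and 30.1 CPM at 0 h, 34.5, 38.1 and 40.3 CPM at 2 h, 27.1, 34.5 and 27.1 CPM at 4 h and 36.4, 42.7 and 33.0 CPM at 6 h. In control, ZC3H14 held 43.8, 38.1 and 49.8 CPM at 0 h, 59.9, 46.5 and 50.2 CPM at 2 h, 40.0, 29.9 and 29.4 CPM at 4 h and 41.1, 41.0 and 39.8 CPM at 6 h. ZC3H14 was below control without overlap at 0 and 2 h. The log2 difference was −0.29 (SE 0.10, adjusted p = 0.0148), and it did not pass with 0 h left out (adjusted p = 0.0966), with 2 h left out (adjusted p = 0.123) or without a filter on low counts (adjusted p = 0.0726). ZC3H14, too, overlaps a protein-coding gene on the other strand. The 7 members of the group that did not pass ranged from −0.17 for NUPL2, a nuclear pore protein, to 0.45 for ZC3H3, which acts in nuclear mRNA polyadenylation and export. ZC3H3 passed at 4 h alone, where it was higher by 1.19 (adjusted p = 0.032).

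Splicing and 3' end factors gave 2 members higher and 1 lower out of 6 tested. MBNL3, a muscleblind protein that regulates alternative splicing, had the smallest adjusted p of all members. In ZC3H7B-OE, MBNL3 held 30.3, 40.7 and 40.6 CPM at 0 h, 47.8, 51.6 and 78.1 CPM at 2 h, 71.5, 47.5 and 61.8 CPM at 4 h and 61.5, 64.2 and 69.2 CPM at 6 h. In control, MBNL3 held 97.8, 96.2 and 112 CPM at 0 h, 168, 121 and 117 CPM at 2 h, 146, 130.4 and 126 CPM at 4 h and 136, 146 and 155 CPM at 6 h. At each of the 4 times every ZC3H7B-OE library was below every control library. The log2 difference was −1.24 (SE 0.09, adjusted p = 1.38e-12), and it held its direction and its call under every alternative tried for it. Its relative MBNL1 was at −0.47 and did not pass (adjusted p = 0.0782), and MBNL2 held only the 2 reads given above.

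U2AF1 recognises the AG at the 3' splice site, and its mRNA was higher in ZC3H7B-OE. In ZC3H7B-OE, U2AF1 held 50.4, 51.9 and 33.6 CPM at 0 h, 36.9, 39.8 and 42.4 CPM at 2 h, 29.4, 47.9 and 46.4 CPM at 4 h and 26.9, 25.8 and 24.9 CPM at 6 h. In control, U2AF1 held 48.2, 31.5 and 20.3 CPM at 0 h, 24.6, 27.6 and 22.7 CPM at 2 h, 24.3, 18.2 and 23.3 CPM at 4 h and 21.4, 18.2 and 25.8 CPM at 6 h. The lines were separated at 2 and 4 h. The log2 difference was 0.56 (SE 0.13, adjusted p = 0.000504). CPSF4, which binds the AAUAAA signal in the cleavage and polyadenylation complex, was higher too. In ZC3H7B-OE, CPSF4 held 10.1, 14.1 and 15.7 CPM at 0 h, 10.4, 8.60 and 9.70 CPM at 2 h, 8.60, 9.65 and 1.46 CPM at 4 h and 3.28, 6.79 and 8.06 CPM at 6 h. In control, CPSF4 held 10.3, 4.35 and 3.69 CPM at 0 h, 12.8, 4.32 and 1.08 CPM at 2 h, 4.73, 3.49 and 6.49 CPM at 4 h and 1.70, 3.50 and 3.43 CPM at 6 h. The lines overlapped at all 4 times. The difference of 0.79 (SE 0.29, adjusted p = 0.0252) did not pass with 0 h or 6 h left out (adjusted p = 0.0611 and 0.11), nor when ZC3H7B-OE 4 h replicate 1 (adjusted p = 0.0524), 4 h replicate 2 (0.0637) or replicate 3 of 6 h (0.0505) was left out, and CPSF4 was no longer tested at a minimum count of 30. It overlaps antisense genes, PTCD1 among them.

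**Figure D3:**
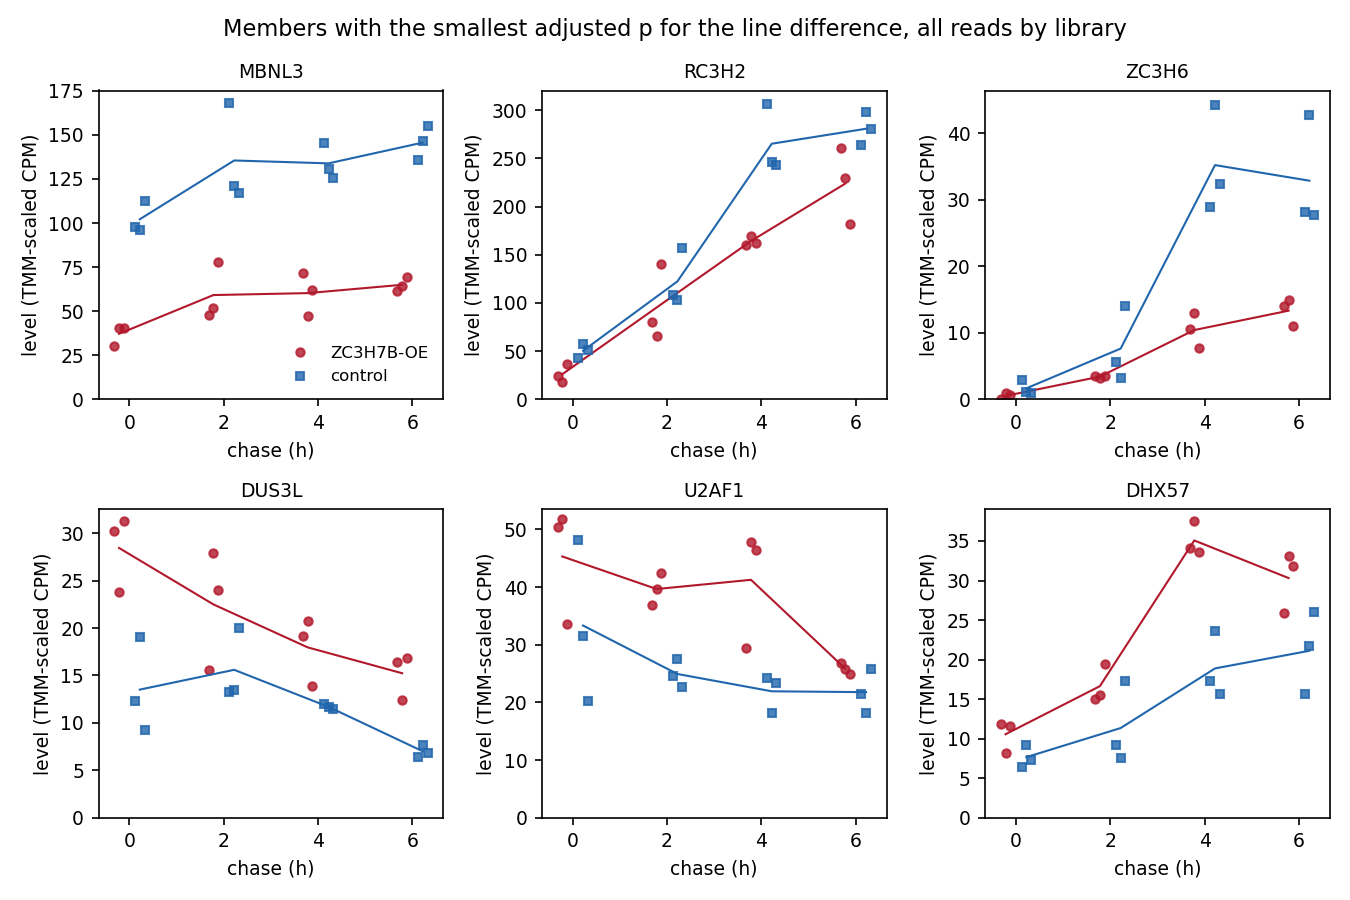
All-read level in TMM-scaled CPM (y axis) against hours of chase (x axis) for the 6 members with the smallest adjusted p in the line difference. Points are libraries, red circles ZC3H7B-OE and blue squares control, and lines join the means of 3 libraries. MBNL3 is lower in ZC3H7B-OE at every time, ZC3H6 separates at 4 and 6 h, and DUS3L lies above control at 0, 4 and 6 h.

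Among the enzymes and other members, 4 of 9 tested were higher and 2 lower in ZC3H7B-OE. DUS3L places dihydrouridine in RNA. In ZC3H7B-OE, DUS3L held 30.3, 23.8 and 31.3 CPM at 0 h, 15.6, 27.9 and 24.0 CPM at 2 h, 19.2, 20.8 and 13.9 CPM at 4 h and 16.4, 12.4 and 16.9 CPM at 6 h. In control, DUS3L held 12.3, 19.0 and 9.22 CPM at 0 h, 13.3, 13.5 and 19.98 CPM at 2 h, 12.0, 11.6 and 11.5 CPM at 4 h and 6.45, 7.71 and 6.87 CPM at 6 h. Every ZC3H7B-OE library was above every control library at 0, 4 and 6 h. The log2 difference was 0.82 (SE 0.15, adjusted p = 2.38e-05). DHX57 is a member of the DEAH-box helicases. In ZC3H7B-OE, DHX57 held 11.9, 8.24 and 11.6 CPM at 0 h, 15.0, 15.6 and 19.4 CPM at 2 h, 34.1, 37.5 and 33.6 CPM at 4 h and 25.9, 33.1 and 31.9 CPM at 6 h. In control, DHX57 held 6.39, 9.24 and 7.37 CPM at 0 h, 9.21, 7.57 and 17.3 CPM at 2 h, 17.3, 23.7 and 15.7 CPM at 4 h and 15.6, 21.7 and 26.0 CPM at 6 h. The separation was complete at 4 h. DHX57 differed by 0.60 (SE 0.15, adjusted p = 0.0012).

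PRR3 and LENG9, of which little is known, were higher as well. In ZC3H7B-OE, PRR3 held 151, 133 and 124 CPM at 0 h, 118, 112 and 109 CPM at 2 h, 54.9, 60.9 and 55.2 CPM at 4 h and 47.7, 52.1 and 48.4 CPM at 6 h. In control, PRR3 held 126, 94.1 and 90.3 CPM at 0 h, 86.0, 90.8 and 78.3 CPM at 2 h, 41.3, 45.0 and 53.8 CPM at 4 h and 45.8, 50.1 and 44.6 CPM at 6 h. The lines were separated at 2 and 4 h, with ZC3H7B-OE the higher. PRR3 differed by 0.29 (SE 0.08, adjusted p = 0.00336). In ZC3H7B-OE, LENG9 held 12.5, 4.36 and 13.9 CPM at 0 h, 17.3, 8.60 and 20.9 CPM at 2 h, 21.5, 25.6 and 23.4 CPM at 4 h and 43.5, 28.3 and 32.2 CPM at 6 h. In control, LENG9 held 4.92, 4.89 and 8.29 CPM at 0 h, 6.65, 6.49 and 10.3 CPM at 2 h, 24.3, 21.7 and 22.1 CPM at 4 h and 22.4, 27.3 and 30.1 CPM at 6 h. These LENG9 values overlapped between the lines at all times. Their log2 difference of 0.56 (SE 0.17, adjusted p = 0.00796) did not pass with 2 h left out (0.42, adjusted p = 0.0633). Both genes overlap an antisense gene, GNL1 for PRR3 and LENG8 for LENG9, so that their reads are uncertain.

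TIPARP, a mono-ADP-ribosyltransferase induced through the aryl hydrocarbon receptor, and MKRN2, a makorin of the RING-type ubiquitin ligases, were lower. In ZC3H7B-OE, TIPARP held 15.4, 8.72 and 15.7 CPM at 0 h, 62.2, 63.9 and 39.8 CPM at 2 h, 80.1, 65.3 and 72.0 CPM at 4 h and 93.4, 103 and 115 CPM at 6 h. In control, TIPARP held 19.2, 13.1 and 19.4 CPM at 0 h, 59.9, 48.1 and 67.0 CPM at 2 h, 102, 119 and 126 CPM at 4 h and 130.4, 107 and 129.9 CPM at 6 h. The lines were separated at 4 h, with ZC3H7B-OE the lower. The TIPARP difference was −0.34 (SE 0.11, adjusted p = 0.00919), and −0.23 with 4 h left out, when it did not pass (adjusted p = 0.198). In ZC3H7B-OE, MKRN2 held 109, 149 and 125 CPM at 0 h, 143, 132 and 154 CPM at 2 h, 179, 142 and 172 CPM at 4 h and 222, 229 and 200.4 CPM at 6 h. In control, MKRN2 held 166, 183 and 265 CPM at 0 h, 155, 200.5 and 136 CPM at 2 h, 184, 169 and 182 CPM at 4 h and 234, 206 and 210.3 CPM at 6 h. MKRN2 was below control without overlap at 0 h, and its difference of −0.24 (SE 0.08, adjusted p = 0.0135) came to −0.08 with 0 h left out (adjusted p = 0.393). Reads of MKRN2 are uncertain too, since the use of strand in counting is not given. MKRN1, which has processed copies elsewhere in the genome that could share its reads, was at −0.09 and did not pass (adjusted p = 0.343). ZC3H10 did not pass over the 4 times but was lower at 4 h (−1.35, adjusted p = 0.0496), a call lost from the 6 libraries of 4 h alone (adjusted p = 0.0613).

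Genes that work with the members were counted in the same test, in which 20.3% of all entries were higher and 25.4% lower. No list was itself tested. Of 15 tested mRNAs known as targets of ZFP36, RC3H or ZC3H12A proteins, 11 were lower and 1 higher in ZC3H7B-OE, with a median log2 difference of −0.55 against 0.01 over all entries. The transcription factor genes ATF3 (−1.15, SE 0.07, adjusted p = 3.98e-14) and JUN (−0.55, SE 0.06, adjusted p = 5.22e-09) were among them, and both also respond to stress. Of 8 genes of CCR4-NOT, the deadenylase that ZFP36 and RC3H proteins recruit, 4 were lower and 2 higher, with a median of −0.37. Of 13 genes listed with CPSF4 for cleavage and polyadenylation, CPSF3L among them, 7 were higher and 1 lower. NUDT21 was at −0.62 (SE 0.06, adjusted p = 1.83e-09) and CLP1 at 0.59 (SE 0.11, adjusted p = 2.38e-05). Of 12 splicing genes listed with U2AF1, ZRSR2 and RBM22, 5 were higher and 2 lower. The lower ones were CDC5L (−0.49, adjusted p = 2.53e-07) and SF3B1 (−0.54, adjusted p = 2.93e-07). In TREX, the export complex that ZC3H11A joins, 1 of 8 was higher (DDX39B, 0.53) and 2 lower. Of 6 genes of the nuclear exosome adaptors and the cap-binding complex, 1 was lower (NCBP2, −0.20, adjusted p = 0.0121), and of 6 m6A writer genes 1 was lower (METTL3, −0.38, adjusted p = 0.02).

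During the chase the all-read level rose for more members than fell, in both lines. Between 6 h and 0 h, 23 of 42 members rose and 10 fell in ZC3H7B-OE, against 32.8% and 30.6% of all entries, and likewise 23 rose and 10 fell in control, against 30.7% and 29.9%. The median log2 change was 0.78 in ZC3H7B-OE and 0.55 in control, against −0.08 in ZC3H7B-OE and −0.05 in control over all entries. The 2 sets of calls were not identical: MKRN2 rose in ZC3H7B-OE (0.77, adjusted p = 0.000132) and not in control (0.09, adjusted p = 0.634), while ZC3H18 rose in control (0.57, adjusted p = 0.0105) and did not pass in ZC3H7B-OE (0.20, adjusted p = 0.335). Neither passed the interaction. Levels are relative to the other mRNAs of a library, so these changes say nothing of absolute amounts. Libraries of 6 h were also deeper than those of 0 h and had a smaller share of labelled reads. The part of depth and of labelling in these changes was not tested.

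Of the 12 nuclear surveillance, export and termination members, 7 rose and 1 fell in ZC3H7B-OE, and 8 rose and 1 fell in control. RBM26 held 22.6, 18.9 and 14.5 CPM at 0 h and 319.8, 332 and 285 CPM at 6 h in ZC3H7B-OE, against 17.2, 10.9 and 12.9 CPM at 0 h and 239, 265 and 246 CPM at 6 h in control, log2 changes of 4.06 in ZC3H7B-OE and 4.17 in control. ZC3H13, a subunit of the m6A writer complex, held 19.0, 19.4 and 28.4 CPM at 0 h and 230.0, 214 and 219 CPM at 6 h in ZC3H7B-OE, against 19.7, 19.6 and 10.1 CPM at 0 h and 159, 189 and 169 CPM at 6 h in control, changes of 3.31 in ZC3H7B-OE and 3.32 in control. In both genes every library at 6 h was above every library at 0 h. RBM27 changed by 3.49 in ZC3H7B-OE and 2.96 in control. ZC3H6 changed by 4.49 in ZC3H7B-OE and 4.15 in control, from near 0 CPM, and these became 5.29 without ZC3H7B-OE 0 h replicate 2 and 4.90 without control 0 h replicate 1. PPP1R10 is the targeting subunit of the phosphatase that slows RNA polymerase II at gene ends. It fell, and held 201, 166 and 196 CPM at 0 h and 70.7, 63.7 and 76.2 CPM at 6 h in ZC3H7B-OE, against 185, 144 and 129 CPM at 0 h and 83.8, 88.6 and 76.1 CPM at 6 h in control, changes of −1.42 in ZC3H7B-OE and −0.89 in control.

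In the decay and repression group 7 of 13 rose and 3 fell in each line. HELZ, an RNA helicase that represses bound mRNAs, held 30.9, 27.1 and 27.8 CPM at 0 h and 495, 432 and 389.5 CPM at 6 h in ZC3H7B-OE, against 21.1, 37.5 and 25.8 CPM at 0 h and 229, 387 and 274 CPM at 6 h in control, log2 changes of 3.94 in ZC3H7B-OE and 3.39 in control. The Roquin genes RC3H1 and RC3H2 changed by 2.92 and 3.11 in ZC3H7B-OE and by 2.18 and 2.48 in control. ZC3H12C rose by 3.60 in ZC3H7B-OE and 2.93 in control, and ZFP36L2 by 1.70 in ZC3H7B-OE and 1.95 in control. The fallers were UNK, TOE1, a 3' exonuclease of small nuclear RNAs, and UNKL, a relative of UNK. UNK changed by −1.84 in ZC3H7B-OE and −2.35 in control, where it was −1.11 without control 0 h replicate 3. TOE1 changed by −1.28 and UNKL by −1.17 in ZC3H7B-OE, and by −1.51 and −0.95 in control.

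Of 9 enzymes and other members, 5 rose and 3 fell in ZC3H7B-OE, and 4 rose and 3 fell in control. TIPARP rose by 2.98, LENG9 by 1.78 and MKRN1 by 1.34 in ZC3H7B-OE, and in control TIPARP rose by 2.84, LENG9 by 2.20 and MKRN1 by 1.60. PRR3 changed by −1.46, ZC3H10 by −1.46 and DUS3L by −0.90 in ZC3H7B-OE, and in control PRR3 changed by −1.15, ZC3H10 by −1.07 and DUS3L by −0.98. In control, the ZC3H10 call was lost without 0 h replicate 2, 6 h replicate 1 or 6 h replicate 2 (adjusted p from 0.0607 to 0.109), and that of DUS3L without 0 h replicate 2 (−0.63, adjusted p = 0.148). Of 6 splicing and 3' end members, 3 rose and 2 fell in each line. The risers included MBNL3 (0.80 in ZC3H7B-OE and 0.52 in control) and MBNL1 (1.28 in ZC3H7B-OE and 1.06 in control). The fallers were ZMAT5 of the minor spliceosome (−0.87 in ZC3H7B-OE and −1.14 in control) and U2AF1 (−0.81 in ZC3H7B-OE and −0.65 in control). In control the U2AF1 call was lost without 0 h replicate 1 (−0.32, adjusted p = 0.35) and without 6 h replicates 1 or 2, and the MBNL3 call without 0 h replicate 1 or 6 h replicate 2 (adjusted p = 0.0595 and 0.054). MBNL1 lost its call in control without 0 h replicate 1 (0.70, adjusted p = 0.226), 6 h replicate 2 or 6 h replicate 3, and in ZC3H7B-OE without replicates 1 or 3 of 0 h or replicate 1 of 6 h, and it was 1.89 in ZC3H7B-OE when replicate 2 of 0 h was left out. NUPL2 rose by 1.22 in ZC3H7B-OE and by 0.73 in control, where the call was lost without 16 of the 24 libraries in turn and was 0.32 without control 0 h replicate 1. Within the ZC3H7 pair, ZC3H7A rose (1.47 in ZC3H7B-OE and 1.22 in control) and ZC3H7B fell (−0.75 in ZC3H7B-OE and −0.52 in control). In control the ZC3H7B fall did not pass without 0 h replicate 2 (−0.35, adjusted p = 0.0733).

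**Figure D4:**
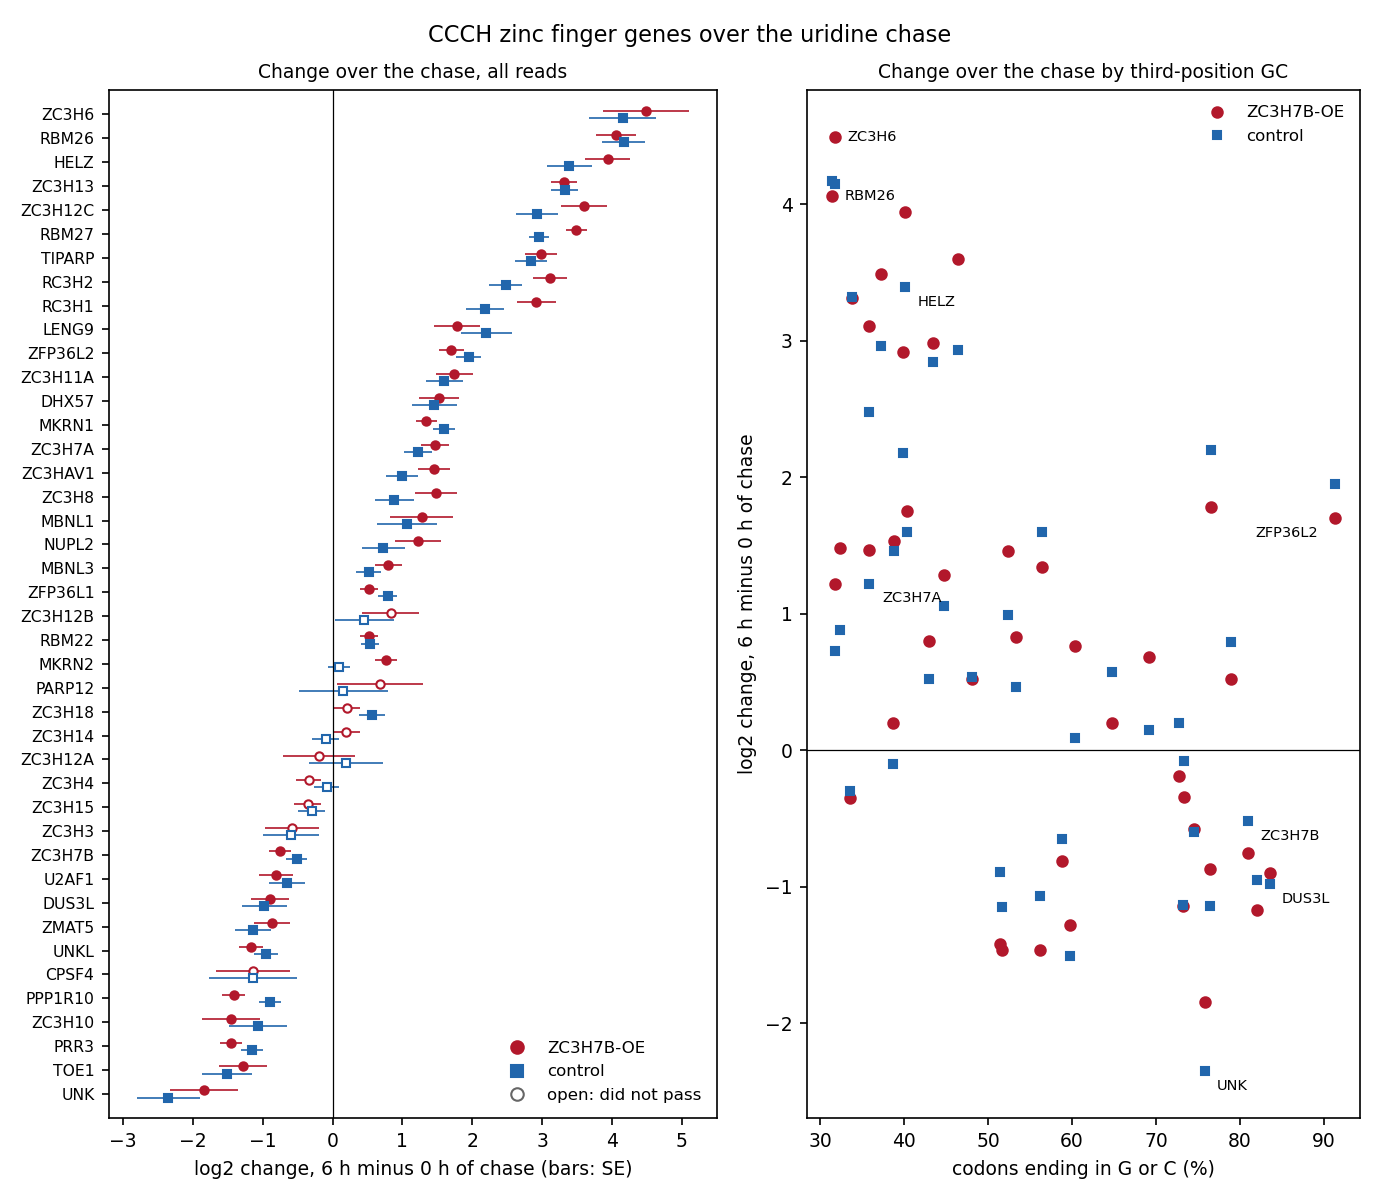
Left, log2 change in all-read level between 6 h and 0 h of chase (x axis, SE bars) for each of the 42 tested members. Right, the same change (y axis) against the share of codons ending in G or C in percent (x axis). Red circles are ZC3H7B-OE and blue squares control, and open symbols on the left did not pass the test. ZC3H6 and RBM26 lie highest in both lines and UNK lowest, and the members above 2 on the log2 scale have a share under 50%, except LENG9 in control (2.20).

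Members with a lower GC3 rose more. Across the 42 tested members, the chase change correlated with GC3 at a Pearson r of −0.60 in ZC3H7B-OE and −0.55 in control (Spearman −0.58 in ZC3H7B-OE and −0.55 in control), and across 9489 tested entries at −0.52 in ZC3H7B-OE and −0.39 in control. It also correlated with the log2 span of the gene in the genome, at 0.43 in ZC3H7B-OE and 0.36 in control for members, and over 9662 entries at 0.36 in ZC3H7B-OE and 0.34 in control. These are descriptions across genes, which share the same libraries and are not independent, and GC3 and span go together in the genome. The members' median GC3 was 52.0% (31.4% to 91.3%) against 59.6% over all entries, and their median span was 45.1 kb (1.92 to 222 kb) against 30.5 kb. The part of GC3 and span in the members' chase change was not tested. The line difference correlated with GC3 at 0.38 for members (Spearman 0.34) and 0.45 for all entries.

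Pooled over the members, the labelled share of reads was 83.3% ± 0.891, 72.9% ± 2.27, 37.7% ± 0.653 and 20.6% ± 0.312 at 0, 2, 4 and 6 h in ZC3H7B-OE (SD, n = 3 each). In control it was 88.0% ± 0.386, 77.8% ± 3.14, 41.3% ± 0.584 and 22.7% ± 0.856. The members' share was above that of all reads of the library at 0 h (74.8% in ZC3H7B-OE and 76.7% in control) and below it at 6 h (29.7% in ZC3H7B-OE and 29.9% in control). Some members departed from this. LENG9 had 0 labelled reads among 1185, which allows a share of up to 0.253% (3 counts; exact 95% upper bound 0.311%, counting error only). At 0 h the mean share of ZC3H12B was 12.9% ± 5.66 in ZC3H7B-OE and 51.1% ± 24.2 in control, and that of CPSF4 was 18.5% ± 12.6 in ZC3H7B-OE and 13.1% ± 12.5 in control (SD, n = 3 each), both below that of all reads. Pooled over all libraries, ZC3H12B had 12.7% (10.5% to 15.1%, exact 95% interval) and CPSF4 19.5% (15.6% to 23.8%). UNK stood above all reads at 6 h, with 78.3% in ZC3H7B-OE and 67.4% in control. LENG9, CPSF4 and UNK overlap antisense genes, as given above, and the use of strand in counting is not given. Their labelled shares are therefore uncertain, and the part of antisense reads in them was not tested.

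In labelled odds over the mean of the times, 1 of 41 tested members was higher in ZC3H7B-OE and 4 were lower, against 1.11% and 9.98% of all entries (11.1% in either direction). The median log2 difference was −0.20 in the members and −0.14 in all entries. At 0 h alone 1 member was higher and 1 lower (0.0969% and 0.84% of all entries), at 2 h 0 and 3 (0.0754% and 5.46%), at 4 h 0 and 1 (0.259% and 3.49%), and at 6 h 0 and 1 (3.81% and 2.96%). Besides ZC3H7B and ZC3H7A, those called over the mean were MBNL3, MKRN2 and RBM26. In ZC3H7B-OE, the labelled share of MBNL3 reads was 80.4, 95.2 and 74.3% in the 0 h libraries, 83.1, 72.9 and 69.3% in those of 2 h, 45.8, 56.2 and 47.9% in those of 4 h and 37.4, 35.7 and 32.3% in those of 6 h. In control, the labelled share of MBNL3 reads was 95.5, 94.9 and 91.8% in the 0 h libraries, 88.8, 91.5 and 86.2% in those of 2 h, 61.7, 59.8 and 68.1% in those of 4 h and 45.0, 40.4 and 45.1% in those of 6 h. The lines overlapped at 0 h only, and the log2 odds differed by −1.10 (SE 0.18, adjusted p = 2.82e-06). In ZC3H7B-OE, the labelled share of MKRN2 reads was 88.0, 91.2 and 86.1% in the 0 h libraries, 74.2, 78.9 and 74.4% in those of 2 h, 35.5, 33.6 and 31.9% in those of 4 h and 21.1, 14.6 and 17.2% in those of 6 h. In control, the labelled share of MKRN2 reads was 92.6, 93.5 and 94.1% in the 0 h libraries, 85.2, 84.9 and 76.9% in those of 2 h, 40.4, 47.5 and 39.3% in those of 4 h and 23.7, 19.1 and 16.7% in those of 6 h. MKRN2 was lower in ZC3H7B-OE without overlap at 0 and 4 h, with a difference of −0.55 (SE 0.13, adjusted p = 0.000907). MBNL3 and MKRN2 were thus lower in level and in labelled share over the mean of the times. Both calls in labelled odds held under all alternatives run, while the MKRN2 call in level was lost with 0 h left out, as given above.

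RBM26 was the member higher in labelled odds, by 1.18 (SE 0.30, adjusted p = 0.00369), and this came from 0 h. There, 38 of 38, 38 of 39 and 25 of 25 RBM26 reads were labelled in ZC3H7B-OE, against 29 of 35, 20 of 20 and 7 of 14 in control. From 2 h on the lines lay close, and with 0 h left out the difference was 0.16 (adjusted p = 0.463). It also did not pass without control 0 h replicate 3 (0.94, adjusted p = 0.052) or with limma on empirical odds (0.91, adjusted p = 0.224). At 2 h alone, ZC3H8 was lower in labelled odds (−2.48, adjusted p = 0.0155), with 23 of 28, 24 of 41 and 54 of 71 reads labelled in ZC3H7B-OE, against 38 of 38, 35 of 37 and 55 of 62 in control.

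**Figure D5:**
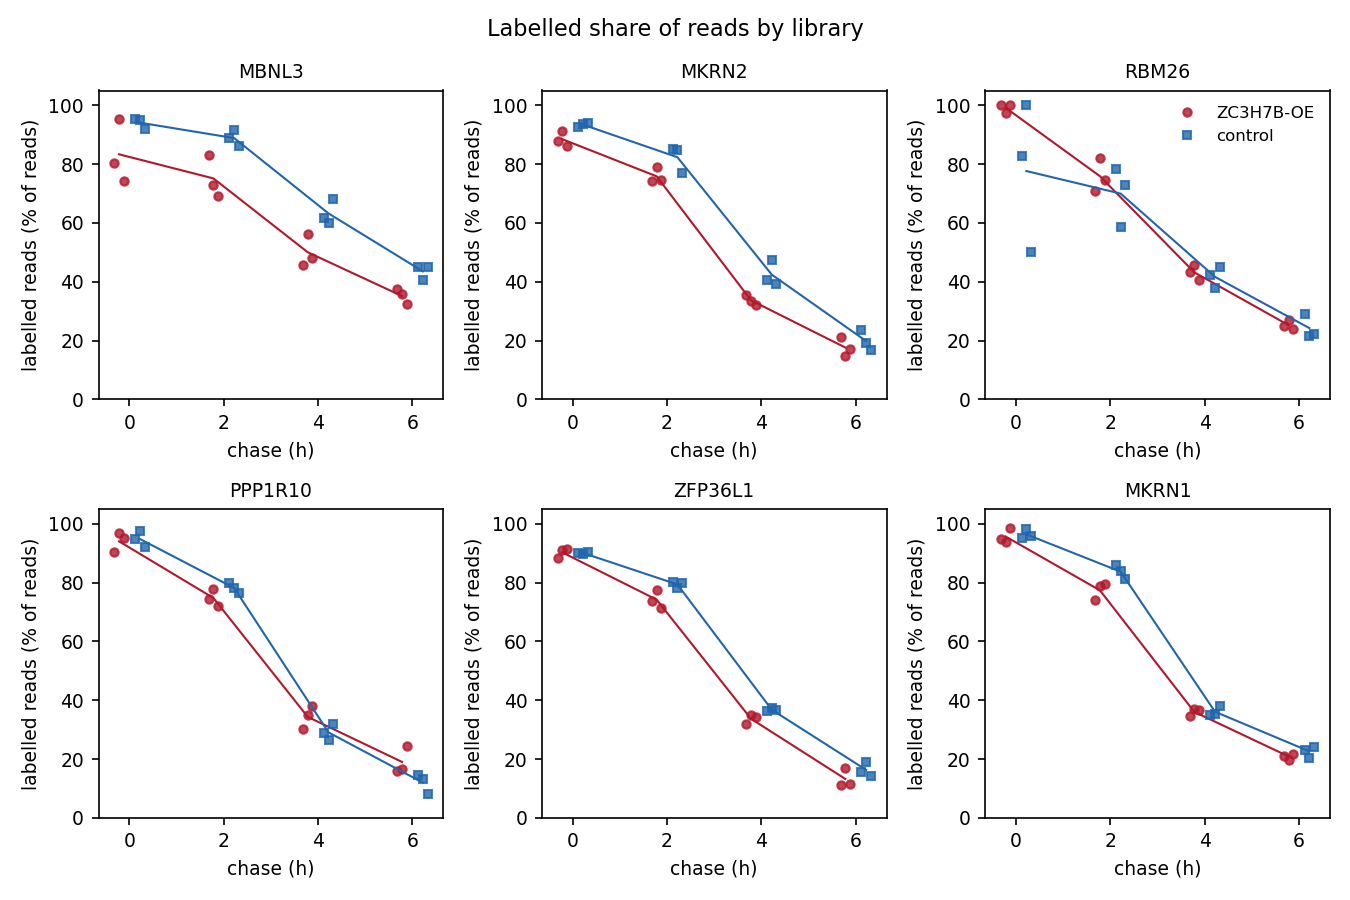
Labelled share of a gene's reads in percent (y axis) against hours of chase (x axis) for MBNL3, MKRN2 and RBM26, called in labelled odds, and for PPP1R10, ZFP36L1 and MKRN1. Points are libraries, red circles ZC3H7B-OE and blue squares control, and lines join the means of 3 libraries. RBM26 differs at 0 h, where control replicate 3 has 7 of 14 reads labelled, and lies close at the later times.

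The loss of labelled reads was fitted as a slope over the chase, in log2 units per hour and relative to all reads of the library, and half-lives are the inverse of falling slopes. The labelled share of all reads did not fall evenly. At 0, 2 and 4 h it was 74.8, 71.8 and 45.5% in ZC3H7B-OE, and 76.7, 75.7 and 47.7% in control. A half-life therefore sums up the whole chase, and whether a straight slope describes each member was not tested. Labelled reads of 26 of 40 tested members fell in each line, 65.0%, against 72.3% of all entries in ZC3H7B-OE and 75.5% in control. Relative to labelled reads only, 7 members fell and 10 rose in ZC3H7B-OE, and 8 fell and 10 rose in control. Of all entries, 1126 fell and 1389 rose in ZC3H7B-OE on that scale, and 1703 fell and 1445 rose in control. Shares of the entries tested are not given on that scale, so these counts do not place the members against the background. The median half-life of the members that fell was 3.63 h in ZC3H7B-OE and 3.25 h in control, against 3.50 h in ZC3H7B-OE and 3.27 h in control for all entries that fell. The shortest half-lives in control were those of PPP1R10, the ribonuclease ZC3H12A, TOE1, PRR3 and ZC3H4. In ZC3H7B-OE they were 1.62 h for PPP1R10, 1.10 h for ZC3H12A, 2.46 h for TOE1, 1.95 h for PRR3 and 2.19 h for ZC3H4. In control they were 1.52 h for PPP1R10, 1.53 h for ZC3H12A, 1.65 h for TOE1, 1.85 h for PRR3 and 1.88 h for ZC3H4. The ZC3H12A values rest on 61 labelled reads over all libraries, with slope SEs of 0.2 in ZC3H7B-OE and 0.174 in control. Among members whose fall passed, the longest in control were those of MKRN1, MBNL3, ZC3H8, ZFP36L2 and the antiviral protein ZC3HAV1. These 5 had positive slopes in control relative to labelled reads. In ZC3H7B-OE their half-lives were 7.09 h for MKRN1, 9.76 h for MBNL3, 5.03 h for ZC3H8, 4.32 h for ZFP36L2 and 5.64 h for ZC3HAV1. In control they were 9.73 h for MKRN1, 8.38 h for MBNL3, 5.34 h for ZC3H8, 4.86 h for ZFP36L2 and 4.73 h for ZC3HAV1. RC3H1, ZC3H11A, TIPARP and DHX57 had flatter control slopes than ZC3H8 (−0.055, −0.087, −0.105 and −0.131), which did not pass and gave no half-life. ZFP36L2 rose by 1.95 in all reads in control, where a mean of 9.98% of its reads were labelled at 6 h. The genes of PPP1R10, TOE1, PRR3 and ZC3H4, and likewise of UNKL and ZMAT5, overlap protein-coding genes on the other strand, so that their reads are uncertain here and in the all-read changes. In control, the falls of MKRN1 and MBNL3 were lost without 6 h replicate 2 and 6 h replicate 1, and that of ZC3H8 without 0 h replicate 1 or 6 h replicate 3.

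Labelled reads rose in 3 members in ZC3H7B-OE and 2 in control, against 1.97% of all entries in ZC3H7B-OE and 1.87% in control. Those of RBM26 (slope 0.30 in ZC3H7B-OE and 0.39 in control) and ZC3H6 (0.33 in ZC3H7B-OE and 0.28 in control) rose in both lines, and those of ZC3H13 in ZC3H7B-OE (0.19, adjusted p = 0.0451; control 0.19, adjusted p = 0.0651). Over 2 to 6 h only, the control slopes were 0.04 for RBM26 (adjusted p = 0.754) and −0.02 for ZC3H6 (adjusted p = 0.863), and the ZC3H6 call in control was lost without 7 libraries in turn. ZC3H7B had a half-life of 2.53 h in ZC3H7B-OE and 4.00 h in control, and its slopes differed by −0.15 (SE 0.05), with an unadjusted p of 0.00795 and an adjusted p of 0.811. ZC3H7A had 4.57 h in ZC3H7B-OE and 4.46 h in control. A difference in slope passed for 0 of 8763 entries (0% of all), with edgeR's test. At an unadjusted p under 0.05 there were 481 (5.49% of all), and no other tool was run for slopes. Among members it was 2 of 40, a share near that of all entries. These were ZC3H7B and ZMAT5 (4.69 h in ZC3H7B-OE and 2.63 h in control, unadjusted p = 0.0396). On simulated data of this design, with slope changes set at 0.3 log2 units per hour, 24.1% of the changed entries were recovered. The simulated labelled share was capped, the median size found was 0.25, and every entry had the same spread. Recovery in the real libraries may therefore differ, but in such data smaller differences would mostly be missed.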

How the data were processed

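Poly(A) RNA was sequenced from 24 libraries in 8 groups of 3, per the labels. The authors deposited raw read counts by gene in 2 tables, for all reads and for reads with T-to-C changes. The submitters' processing notes name fastp and the build GRCh37, per the labels. Not given in the sources used here are the aligner, the counting rule, its use of strand and how many changes make a read labelled. Columns of no sample numbered 0. Groups were taken from the labels.

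All reads were fitted by robust quasi-likelihood with TMM scaling (edgeR 4.0.16 under R 4.3.3) on all 24 libraries with a mean per group, after filterByExpr at a minimum count of 10. Labelled odds came from paired labelled and unlabelled counts of each library, 48 columns, for entries with at least 50 reads of each kind. Slopes of labelled reads were scaled by the all-read sizes and TMM factors. A half-life therefore includes dilution by new mRNA. P-values carry a Benjamini-Hochberg adjustment over all entries tested, with a threshold of 0.05. Values named "CPM" are TMM-scaled.

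Alternatives were DESeq2 1.42.0 (size factors, and its own test), limma 3.58.1, other count minimums, 1 time or 1 library left out, the replicate number as a block, and other scalings. No 2 libraries of a group were duplicates, with a chi-square of at least 2.28 per degree of freedom. Intervals and the floor of 3 counts cover counting error only, since reads without molecular identifiers can be copies of 1 molecule. On simulated data of this design, with the same spread for every entry, 99.5% of entries changed by 1 on the log2 scale were recovered in the line difference. In labelled odds 79.6% were recovered. GC3, span and finger sequences came from GENCODE 29 by gene name, and no coordinates were used, since that release is on another build than the counts.

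The members, role groups and lists were chosen with earlier results of these data known. Full values are given for ZC3H7B, ZC3H7A, members past the threshold in the line difference over the 4 times, members past it in labelled odds, and the 5 shortest and 5 longest half-lives in control. Members given only by a change over the chase were chosen after their values were seen.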

Additional observations from a re-analysis of the deposited data

How the results depend on the processing

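Of the values of single members under alternatives, those of the line difference kept direction in every alternative tried, and the calls that were lost are given beside them. Counts below are entries or members past the threshold, and the cause of each shift was not tested unless fewer libraries or entries account for it. Without a filter on low counts, members past it were 2 at 2 h (1 with the filter) and 6 at 6 h (3), and the interaction passed for 942 entries (174) and 1 member, UNK (0). Relative to the library's labelled odds, 43 entries (87) passed in labelled odds at 0 h, 134 (514) at 2 h with 1 member (3), and 2 members (1) at 6 h. With slopes over 2 to 6 h only, the control slope of ZC3H6 was −0.024, and 63 entries differed in slope between the lines (0), among them 0 members. Scaled by labelled reads, slopes passed for 2515 entries and 17 members in ZC3H7B-OE (6513 and 29) and 3148 entries and 18 members in control (6781 and 28), and 2 entries differed between the lines. That scaling turned the control slopes of MBNL3 to 0.127, MKRN1 to 0.142, RBM22 to 0.02, ZC3H7A to 0.022, ZC3H8 to 0.053, ZC3HAV1 to 0.032 and ZFP36L2 to 0.037. With 4 h left out 535 entries passed in labelled odds over the mean, and with 6 h left out 681 (1030). From the 6 libraries of 1 time alone, 791 entries and 1 member, MBNL3, passed at 0 h (3132 and 10), 3104 entries at 4 h (1772), and 3286 entries and 10 members at 6 h (1583 and 3). DESeq2 called 3 members at 2 h. Limma on empirical odds called 593 entries and 3 members (1030 and 5), ZC3H7B, MBNL3 and MKRN2.

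Leaving out 1 library at a time, members in the line difference numbered 6 to 10 at 0 h, 1 to 3 at 2 h, 2 to 12 at 4 h and 2 to 6 at 6 h. Entries ranged from 575 to 1671 at 2 h, 1038 to 2840 at 4 h, 890 to 2672 at 6 h and 48 to 910 for the interaction. In labelled odds, entries ranged from 32 to 110 at 0 h, 242 to 928 at 2 h, 169 to 463 at 4 h and 380 to 762 at 6 h, and members from 1 to 2 at 0 h, 2 to 5 at 2 h and 1 to 2 at 6 h. A slope difference passed for 0 to 1 entries. The replicate numbers do not pair the libraries: deviations of same-numbered libraries correlated at −0.12 to 0.21, and 1 of 12 pairs was over 0.1. With the replicate number as a block, the line difference kept 8 members higher and 10 lower, ZC3H18 was lost at 0 h and ZC3H10 at 4 h, and the rise of NUPL2 in control did not pass (adjusted p = 0.0554). Slopes then passed for 27 members in ZC3H7B-OE and 28 in control, and the interaction for 135 entries and 0 members. Depth limits most what is said of members with few reads per library, such as ZC3H6, CPSF4, ZC3H10 and ZC3H12A, and of RBM26 at 0 h.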

Other observations

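The partners of the CCCH members were also followed over the chase. Of 8 tested CCR4-NOT genes, 5 rose and 0 fell between 0 and 6 h in ZC3H7B-OE (32.8% and 30.6% of all entries), and 6 rose and 0 fell in control (30.7% and 29.9%), with median log2 changes of 1.63 in ZC3H7B-OE and 1.27 in control. Of 6 genes of the nuclear exosome adaptors and the cap-binding complex, 3 rose in ZC3H7B-OE (median 1.39) and 5 in control (median 1.96). Of 13 genes listed with CPSF4 for cleavage and polyadenylation, 7 rose and 1 fell in ZC3H7B-OE, and 5 rose and 1 fell in control. The 15 tested targets of ZFP36, RC3H or ZC3H12A proteins gave 8 rising and 3 falling in ZC3H7B-OE, and 10 rising and 0 falling in control, with medians of 0.59 in ZC3H7B-OE and 1.06 in control. Of 6 m6A writer genes, 2 rose and 1 fell in ZC3H7B-OE (median 0.57), and 4 rose and 2 fell in control (median 0.77). Of 8 TREX genes, 3 rose and 1 fell in ZC3H7B-OE (median −0.08), and 2 rose and 3 fell in control (median −0.07). Of 12 splicing genes listed with U2AF1, ZRSR2 and RBM22, 3 rose and 4 fell in ZC3H7B-OE (median −0.26). In control, 3 rose and 2 fell (median 0.16).

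In labelled odds over the mean of the times, 1.11% of all entries were higher and 9.98% lower in ZC3H7B-OE, and 0 genes of the 7 lists were higher. Lower were 4 of 12 splicing genes listed with U2AF1, ZRSR2 and RBM22 (median −0.37). So were 1 of 11 listed for cleavage and polyadenylation (−0.02) and 1 of 8 of CCR4-NOT (−0.05). Of the 6 m6A writer genes (−0.06), the 6 of the exosome adaptors and cap-binding complex (−0.25), the 8 of TREX (−0.08) and the 15 targets (−0.06), 0 were lower. None of these counts was tested as a list.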
